A study of Mus musculus with 6 samples.

Results

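The angiopoietin and Tie receptor genes were compared between lymphatic endothelial cells (LEC) of a mouse tumour and of normal skin. The set was chosen by name and holds 7 genes: the ligands Angpt1 and Angpt2, the related secreted proteins Angptl2 and Angptl4, the receptors Tek and Tie1, and Ptprb, a phosphatase that acts on TEK. Of these, 6 have at least 1 probe set named for that gene alone, and all 6 passed the filter on dim probe sets, among 12954 genes tested. Angptl2 was not analysed here. The cells were compared on Affymetrix arrays, 3 per group, with 50 ng of total RNA labelled for each array. Tumour LEC came from fibrosarcomas that T241 cells carrying VEGF-C and GFP had formed in C57BL/6 mice, with no age or sex given. Normal LEC came from the dermis of tail skin of female C57BL/6 mice aged 8 weeks. T241 is a mouse fibrosarcoma line, VEGF-C is a growth factor of lymphatic vessels, and GFP is a fluorescent tag. Both groups were grown in an endothelial medium on gelatin, and magnetic beads that bind LYVE-1, which marks lymphatic endothelium, were used to purify the cells. For the tumour cells the labels run into the wording for skin, so how far that step applied to them is not clear. The titles of the tumour arrays name tumour cells, whereas their source descriptions name endothelial cells, which is the reading used here. Nothing in the labels says whether replicates were separate animals or cultures, so the tests see the spread among arrays alone, which may be technical. With 3 arrays a group, precision is limited throughout.

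Angiopoietins are secreted ligands of TEK, also called TIE2, a receptor tyrosine kinase of endothelium. ANGPT1, made mainly by mural and mesenchymal cells, activates TEK and keeps vessels quiet and tight, while ANGPT2, made by endothelial cells themselves, acts as an agonist or an antagonist depending on the setting. TIE1 binds no angiopoietin with high affinity but pairs with TEK and shapes its signal, and PTPRB, known as VE-PTP, removes phosphate from TEK and from the junctional cadherin CDH5. In mice, loss of Angpt2 impairs lymphatic vessels and loss of Tie1 also disturbs their growth.

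The values are log2 expression per probe set, and a difference of 1 is a 2-fold change. A value counted as background when it lay at or below the highest of 27 control probe sets for absent bacterial RNA on the same array, a limit of 3.40 to 3.71. Levels were compared between arrays within a probe set only. Array medians were 2.99 to 3.15 and the highest was that of tumour replicate 3, where the bacterial controls were also highest (median 2.77 against 2.56 to 2.61). The LYVE-1 gene itself, Lyve1, read 14.11 to 14.91 in tumour LEC and 13.65 to 14.32 in normal LEC, and Prox1, the lymphatic master regulator, 7.77 to 8.92 and 7.73 to 8.30. Normal replicate 1 stood apart by its fibroblast genes: the median over 15 of them, as deviation from each gene's mean, was 4.18 there. It was 1.55 on normal replicate 2, 1.53 on normal replicate 3 and -2.20 to -1.83 on the tumour arrays. The lymphatic list had medians of -0.17 to 0.44 on the tumour arrays and -0.21 to 0.15 on the normal ones. Proliferation genes were lowest on tumour replicate 3, at -2.01, against -0.72 to 1.04 elsewhere. In bulk RNA a change in the share of a cell type cannot be told apart from a change in RNA per cell.

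Angpt2 and Ptprb were higher on every tumour array than on any normal array, by 2.84-fold and 3.05-fold. Tek differed in the same direction, by 1.75-fold, with 1 normal array above 1 tumour array. The Tie1 means differed by 0.02 with a wide interval, Angptl4 was high on 2 of the 3 tumour arrays, and Angpt1 was above background on a single array, a normal one. No gene of the 6 reached an adjusted p under 0.05 by limma with Benjamini-Hochberg adjustment, a threshold that 0.216% of all genes tested passed, 0.0463% as higher in tumour LEC. At an unadjusted p under 0.05, 2 of the 6 passed, both higher in tumour LEC, where 15.5% of all genes passed in either direction and 6.66% passed as higher. The groups were separate, with tumour LEC higher, for 2 of the 6, compared with 20.9% of all genes. Among the 11105 genes that exceeded background on at least 1 array the share was 13.8%. In either direction 32.4% of all genes, and 27.2% of those 11105, had separate groups. Angpt2, Ptprb and Angptl4 differed by more than 2-fold as higher, as did 3.84% of all genes, and none of the 6 by more than 2-fold as lower, as did 6.76%. The difference was positive for 5 of the 6, as for 53.1% of all genes. The median difference over the 6 genes was 0.97, against 0.03 over all genes tested and 0.96 over 18 pan-endothelial genes.

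**Figure D1:**
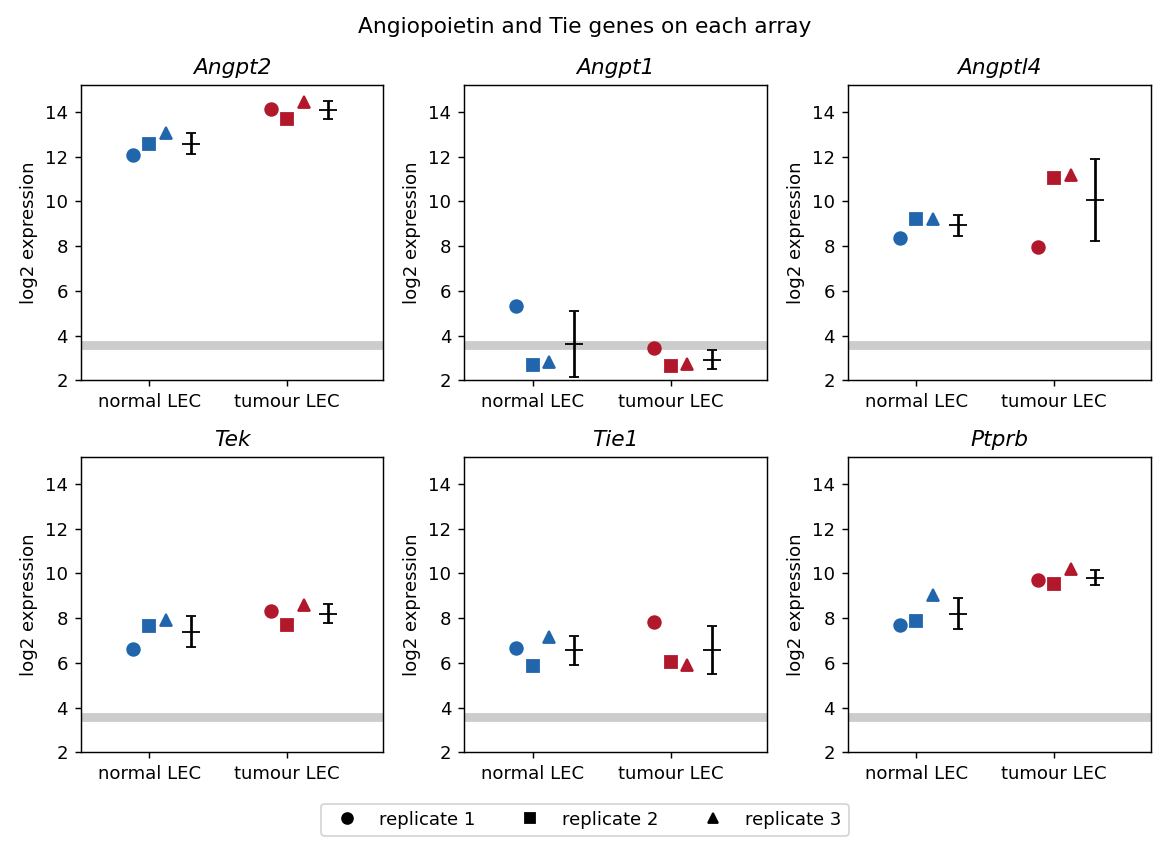
Log2 expression of the 6 measured genes on each array (y axis), with normal LEC in blue and tumour LEC in red, 1 symbol per replicate, and the group mean ± SD beside the points (n = 3). The grey band spans the background limits of the arrays (3.40 to 3.71). Only Angpt2 and Ptprb separate the groups, and Angpt1 exceeds the band on normal replicate 1 alone.

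Among the ligands, Angpt2 read 14.11, 13.67 and 14.45 on tumour replicates 1, 2 and 3 and 12.09, 12.58 and 13.04 on the normal ones. The lowest tumour array thus lay above the highest normal array. The mean was 14.08 ± 0.39 (SD, n = 3) for tumour LEC and 12.57 ± 0.48 for normal LEC, which differ by 1.51 (SE 0.31, 95% interval 0.72 to 2.29, adjusted p = 0.132, limma). In linear terms the interval runs from 1.65-fold to 4.89-fold higher. By its p-value Angpt2 ranked 354 among the 12954 genes.

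Angpt2 has a second, dimmer probe set, which was above background on all 6 arrays. It read 9.57, 8.90 and 10.66 on the tumour arrays and 6.20, 6.40 and 7.36 on the normal ones. Both probe sets put the arrays in the same order, lowest in normal replicate 1 and highest in tumour replicate 3. The size of the difference was not the same: the second probe set gave 3.05, or 8.30-fold (SE 0.54, adjusted p = 0.110 over 27018 probe sets, limma). The mean of both probe sets gave 2.28 (adjusted p = 0.106).

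Angpt1 was hardly measured. Its brighter probe set read 5.31 on normal replicate 1 and 2.70 and 2.81 on the other normal arrays. On the tumour arrays it read 3.43, 2.63 and 2.72, all at background. The difference was -0.68 (SE 0.76, 95% interval -2.56 to 1.21, adjusted p = 0.643, limma), and it was 0.18 without normal replicate 1. The other Angpt1 probe set was at background on all arrays. Because 1 of 3 normal arrays carried the signal, no fold change is given.

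The array with Angpt1 signal was also the one with the most signal from mural cells and fibroblasts, both known sources of ANGPT1. All 12 listed mural genes are on the array, and 3 to 5 of them were above background on tumour arrays and 5 to 6 on normal arrays. Their summed log2 values were 53.3 to 57.0 in tumour LEC and 58.8 to 69.7 in normal LEC, with the maximum on normal replicate 1. The pericyte and muscle genes Rgs5, Des, Myh11 and Cnn1 were at background on all arrays, whereas Pdgfrb, a receptor of mural cells and fibroblasts, read 10.78 on that array, at least 7.87 in the rest of normal LEC and at most 3.84 in tumour LEC. The list did not go one way: of its 10 tested genes 5 had a positive and 5 a negative difference. Abcc9 and Kcnj8, channel genes of pericytes, differed by 1.54 (SE 0.71) and 1.32 (SE 0.97) and were highest on tumour replicate 3, and Tagln, a smooth muscle gene, differed by 1.31 (SE 0.89) and was highest on tumour replicate 2. The fibroblast list, of which 15 of 16 genes are on the array, had summed values of 112.5 and 111.9 on normal replicates 3 and 2, 157.5 on normal replicate 1 and 54.1 to 64.7 in tumour LEC. The collagen gene Col1a2 read 14.29, 11.69 and 11.70 on normal replicates 1, 2 and 3 and 2.76 to 3.61 in tumour LEC. The PDGF receptor gene Pdgfra read 11.75, 9.48 and 9.13 on those normal arrays and 4.66 to 5.74 in tumour LEC. Fibroblast genes were thus also well above the tumour arrays on normal replicates 2 and 3, where Angpt1 was at background. The part of these cells in the Angpt1 signal was not tested.

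Angptl4, a secreted inhibitor of lipoprotein lipase that responds to fasting and hypoxia, was uneven among the tumour arrays. It read 7.96 on tumour replicate 1 and 11.04 and 11.16 on replicates 2 and 3, against 8.37, 9.21 and 9.20 on the normal arrays. Tumour replicate 1 was thus the lowest of the 6 arrays and the other tumour arrays the highest. The difference was 1.13 (SE 0.92, 95% interval -1.16 to 3.42, adjusted p = 0.553, limma). Without tumour replicate 1 it was 2.18 (SE 0.31, adjusted p = 0.112), and without tumour replicates 2 or 3 it was 0.64 or 0.57. Markers of leukocytes were highest on tumour replicate 1, with a median deviation of 1.60 over 8 genes against -0.49 to 0.37 elsewhere. Over the 10 listed genes on the array the summed values were 44.5 to 63.2 in tumour LEC and 49.4 to 56.3 in normal LEC, and Itgam, Aif1, Cd3e and Cx3cr1 were at background on all arrays. Ptprc, which encodes CD45, read 5.92 on tumour replicate 1 and at most 3.36 on the others. Cd68 read 10.88 on tumour replicate 1, 7.90 and 4.82 on tumour replicates 2 and 3, and 8.45 to 9.57 on the normal arrays. The list was not uniform: Lyz2 read 10.06 on tumour replicate 1 and 10.01 on normal replicate 3. Cd14 read 11.11 on tumour replicate 1 and was highest on tumour replicate 3, at 12.00. The part of these cells in the Angptl4 values was not tested. The value rests on 1 probe set of a type that can match more than 1 transcript, and the other Angptl4 probe set was at background on all arrays.

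**Figure D2:**
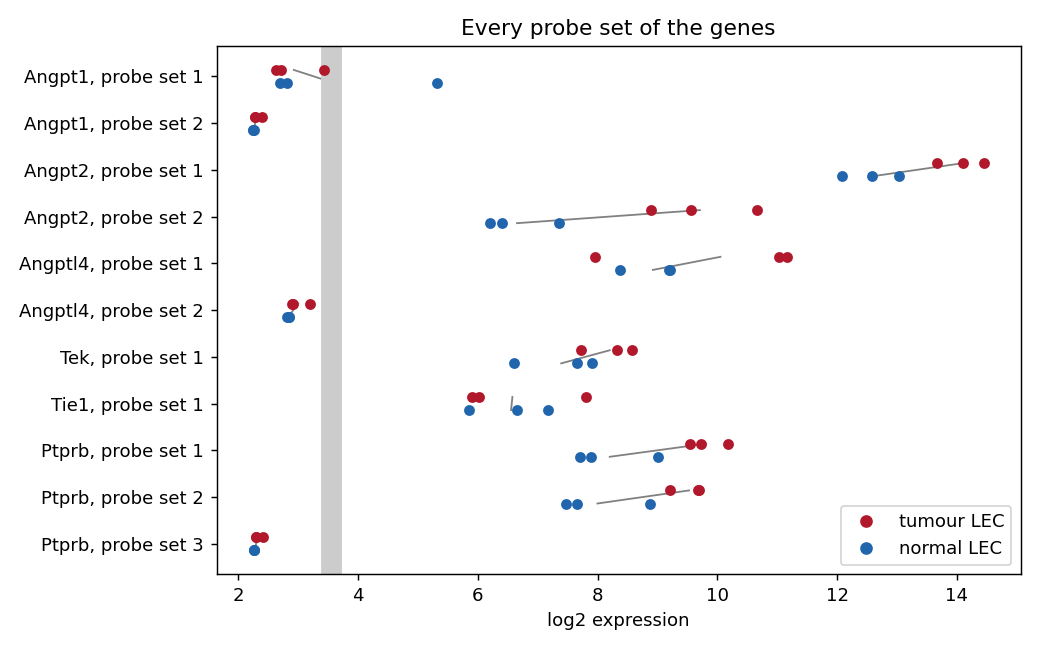
Log2 expression (x axis) of all 11 probe sets of the 6 genes (rows), 1 point per array, tumour LEC in red and normal LEC in blue, with a line joining the group means and the background limits in grey. Both Angpt2 probe sets and both detected Ptprb probe sets separate the groups, by 1.51 and 3.05 and by 1.61 and 1.53, while 1 probe set each of Angpt1, Angptl4 and Ptprb stays at background on all arrays.

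The receptors Tek and Tie1 did not follow each other across the arrays. RefSeq promoter windows (GRCm38.p6) were at hand for 3 of the 7 genes, Tek, Tie1 and Angptl2, and the 250 bases before the start site given there were searched. The Tie1 window is shown because it belongs to a receptor and lies wholly outside the annotated gene, on the minus strand at chr4:118489850-118490099. It is printed 5′ to 3′ on the gene's strand, and capitals mark a match to CAGGAA, a core bound by ETS factors, a transcription factor family of many endothelial genes.
Tie1: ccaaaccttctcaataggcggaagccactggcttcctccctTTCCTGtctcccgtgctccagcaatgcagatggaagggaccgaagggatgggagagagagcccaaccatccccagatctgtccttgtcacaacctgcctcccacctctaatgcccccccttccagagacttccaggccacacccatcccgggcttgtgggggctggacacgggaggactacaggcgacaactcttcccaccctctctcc

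Tie1 held 1 match to CAGGAA, beginning 209 bases before the start site. It reads TTCCTG as printed, so CAGGAA itself lies on the opposite strand. The Tek window is not printed, since 203 of its 250 bases lie inside the annotated gene: its start site is not the outermost one. It held 2 matches, at 89 and 59 bases, both inside the gene. The motif was found on either strand in 25.7% of 32851 windows of that length, so its presence is common. Neither window held the FOXO core GTAAACA (3.17% of windows), the hypoxia response core ACGTG (16.6%) or CCGGAA, another ETS core (12.0%), on either strand.

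Tek, which encodes the angiopoietin receptor TIE2, read 8.32, 7.72 and 8.58 on tumour replicates 1, 2 and 3 and 6.61, 7.66 and 7.91 on the normal arrays. Tumour replicate 2 lay between normal replicates 2 and 3, so the groups overlapped. The means were 8.20 ± 0.44 and 7.39 ± 0.69 (SD, n = 3), a difference of 0.81 (SE 0.41, 95% interval -0.21 to 1.83, adjusted p = 0.403, limma). Normal replicate 1 decided much of it, since the difference was 0.42 without that array (adjusted p = 0.661). The pan-endothelial genes were lowest on the same array, with a median deviation of -1.005 over 18 genes. Pecam1, the endothelial adhesion molecule CD31, read 5.59 there and 7.39 to 8.86 on the other arrays.

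Tie1, the partner receptor, read 7.81, 6.02 and 5.91 on the tumour arrays and 6.65, 5.85 and 7.16 on the normal arrays. Its highest value was on tumour replicate 1 and the lowest on normal replicate 2, with full overlap of the groups. The difference was 0.02 (SE 0.62, 95% interval -1.52 to 1.56, adjusted p = 0.988, limma), an interval that leaves room for a change of nearly 3-fold in either direction (0.349-fold to 2.95-fold). Its sign turned when single arrays were left out, from -0.59 without tumour replicate 1 to 0.36, and it was -0.043 with median centring and -0.44 with weighted arrays. On tumour replicate 1 the pan-endothelial list was also highest, with a median deviation of 1.04. On normal replicate 1, where that list was lowest (-1.005), Tie1 was not low: its deviation from its own mean was 0.09.

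Ptprb read 9.72, 9.54 and 10.18 on tumour replicates 1, 2 and 3 and 7.71, 7.89 and 9.02 on the normal arrays. Every tumour array was above every normal array, although normal replicate 3 was less than 1 normal-group SD below the lowest tumour array. The means were 9.81 ± 0.33 and 8.20 ± 0.71 (SD, n = 3), a difference of 1.61 (SE 0.39, 95% interval 0.64 to 2.58, adjusted p = 0.170, limma), or 1.55-fold to 5.99-fold. A second probe set gave 1.53 (SE 0.40, adjusted p = 0.222 over all probe sets, limma), with the groups again separate, and the third was at background on all arrays. The difference was 2.01 without normal replicate 3 (SE 0.24, adjusted p = 0.116) and 1.36 without normal replicate 1.

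**Figure D3:**
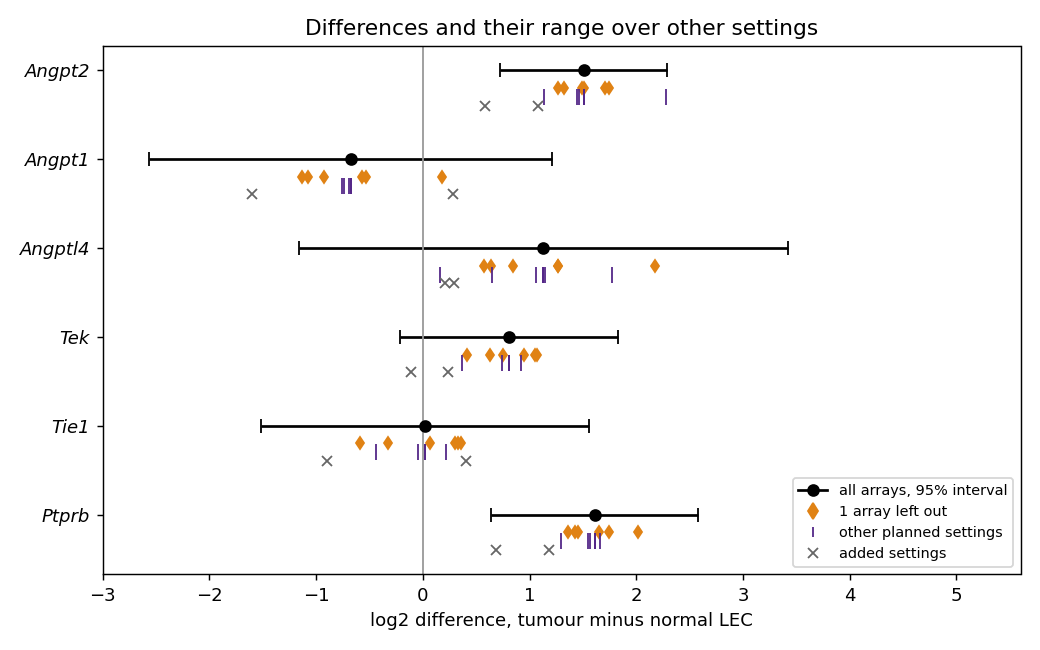
Log2 difference between tumour and normal LEC (x axis) for the 6 genes (rows), with all arrays and its 95% interval in black, with 1 array left out in orange, in the other planned settings as purple ticks and in the added settings as grey crosses. The differences of Angpt2 and Ptprb stay above 0 in all settings shown, while those of Angpt1, Tek and Tie1 cross 0 in some.

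Angpt2 and Ptprb, the ligand and the phosphatase that act on TEK from opposite faces of the membrane, put the 6 arrays in one identical order. From low to high this was normal replicates 1, 2 and 3 and then tumour replicates 2, 1 and 3. Among the 11105 genes that exceeded background somewhere, 98 (0.882%), these genes included, had that order. Tek had it but for an exchange of tumour replicate 2 and normal replicate 3. The within-array difference of Angpt2 and Tek, each taken as deviation from its own mean, was 0.26 to 0.43 in tumour LEC and -0.61 to -0.04 in normal LEC. That of Ptprb and Tek was 0.19 to 0.61 and -0.99 to -0.10. Both thus exceeded Tek on every tumour array compared with every normal array, whereas Tek against Tie1 overlapped (-0.72 to 1.44 and -1.28 to 0.58). These pairs were chosen after the values had been seen and were not tested.

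Markers shared by all endothelium differed in the same direction on balance. Of 18 pan-endothelial genes, none of them in the set described, 16 had a positive difference (median over the list 0.96), as did 53.1% of all genes tested, and 6 separated the groups as higher, against 20.9% of all genes. The more specific lists had medians near that of all genes. For the lymphatic list the median was 0.12, with 4 of 12 genes negative, among them Foxc2, a valve transcription factor, at -1.74 (SE 0.36). For the blood endothelial list it was 0.03, with 6 of 11 positive and 5 negative, and with Vwf and Sox17 at background on all arrays. The negative ones included Nrp1, a co-receptor for VEGF, at -3.59 (SE 1.24). Among the positive ones were Cd34, at 1.25 (SE 0.41) with separate groups, and Apln, at 1.84 (SE 0.80) with overlapping groups. The summed log2 values of the pan-endothelial list were 175.9 to 193.7 in tumour LEC and 155.1 to 177.0 in normal LEC. Of its genes Flt1 alone was at background on all arrays. Cdh5, the junctional substrate of PTPRB, read 11.52 to 11.65 in tumour LEC and 9.62 to 11.37 in normal LEC. Taken relative to the list's median deviation on each array, the difference was 0.59 for Angpt2, 0.69 for Ptprb, 0.21 for Angptl4, -0.11 for Tek, -0.90 for Tie1 and -1.60 for Angpt1. The Angpt1 value had the lowest adjusted p of the 6 genes in any setting (0.0556, limma). That fit gave every gene the same SE (0.58), which does not reflect the spread of Angpt1. Its SD on that scale was 2.04 in normal LEC and 0.08 in tumour LEC. On that scale Angpt1 read 3.05 on normal replicate 1, where the endothelial list was lowest, and -0.96 to -0.19 on the other 5 arrays. On that scale Angpt2 read -0.26, 0.03 and 0.87 on the tumour arrays and -0.23, -0.36 and -0.53 on the normal ones, so tumour replicate 1 overlapped the normal arrays. Ptprb overlapped too. The part of endothelial content in the differences was not tested beyond this scaling. That scaling moved the median difference of all genes by -0.92.

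**Figure D4:**
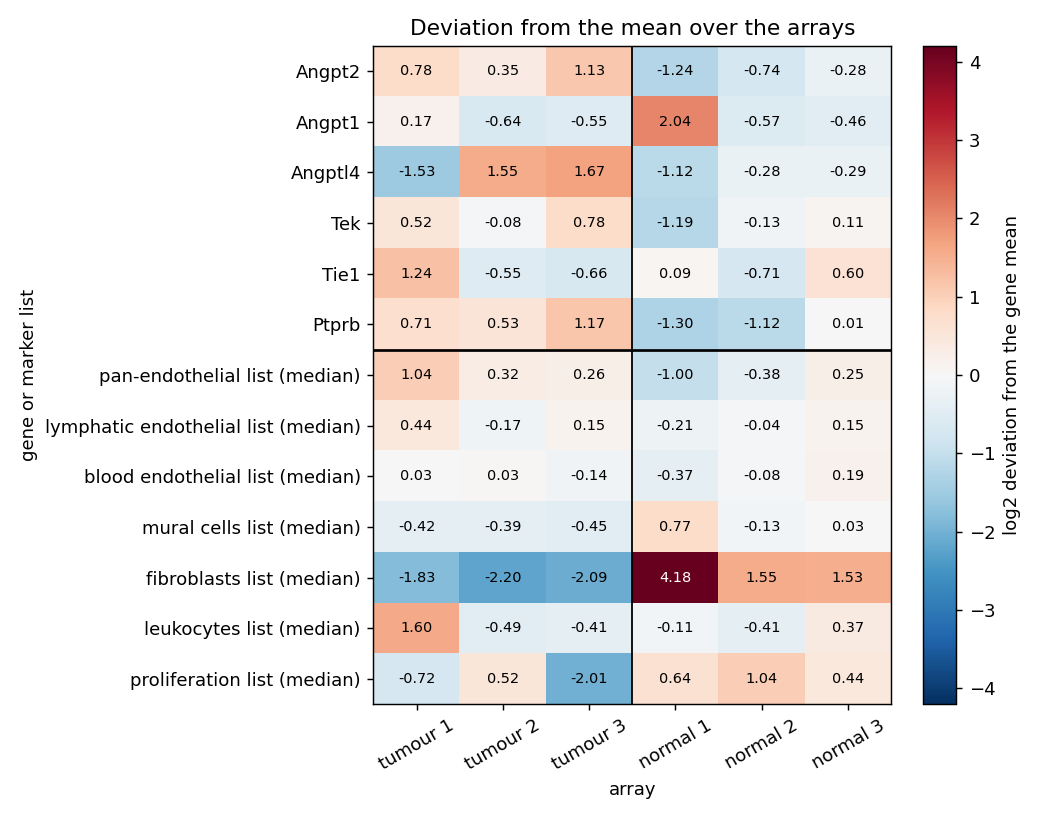
Deviation in log2 units from the mean over the 6 arrays (colour and printed value) for the 6 genes and for the median of each marker list (rows) on each array (columns, tumour left of the line). Angpt2, Tek and Ptprb are lowest on normal replicate 1, where the fibroblast list is at 4.18 and the pan-endothelial list at -1.005.

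By correlation over the 6 arrays, Angpt2 was most like Uhmk1 (Pearson r = 0.998), Nlk (0.997) and F11r (0.995), and Ptprb most like Rab33b (0.994), Ppp1cb (0.993) and Lepr (0.991). F11r, which encodes the junctional adhesion molecule JAM-A, differed by 1.40 (SE 0.35), and Lepr, the leptin receptor gene, by 2.66 (SE 0.49). Tek was most like Mtss1 (0.993), Tsks (0.988) and Zfp664 (0.983). Tie1 was most like Tef (0.997), Gem (0.995) and Glb1 (0.994), and Angptl4 most like Eny2 (0.992), Zfp850 (0.985) and Zfyve16 (0.983). For Angpt1 the closest were Scrn2 (0.998), Rpusd1 (0.996) and Cyp7b1 (0.992), and Scrn2 read an identical 6.19 on 4 of the 6 arrays, so that likeness rests on the others. These are descriptions over 6 arrays in 2 groups that share array platform and processing, and 156 to 372 of 11104 genes had an r above 0.9 with each gene.

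Further members of the family gave little signal. Of 7 other angiopoietin-like genes and partners listed, 6 are on the array and 2, Angptl1 and Angptl7, passed the filter. Angpt4, Angptl1 and Angptl8 were at background on all arrays. Angptl6, Angptl7 and Svep1, the last a matrix protein that binds TIE1, exceeded it on normal replicate 1 alone, at 3.52, 4.93 and 3.91, the array on which Angpt1 also did. Neither tested gene passed: Angptl1 differed by 0.08 (SE 0.10) and Angptl7 by -0.82 (SE 0.73).

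None of the 49 tested genes of the 6 pathway lists passed an adjusted p of 0.05 (limma), where 0.216% of all genes did. At an unadjusted p under 0.05 there were 5 higher and 3 lower, against 863 and 1144 of all 12954 genes. Their median difference was 0.06, close to the 0.03 of all genes. The groups were separate for 9 as higher and 5 as lower, against 20.9% and 11.6% of all genes.

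Among receptor phosphatases related to Ptprb or known in endothelium, 4 were tested, with a median difference of 0.53. That median includes Ptprj, which differed by 0.03 (SE 0.09) and was at background on all arrays. Ptprm, which binds cadherins, read 8.27 to 9.41 in tumour LEC and 6.99 to 7.81 in normal LEC, a difference of 1.40 (SE 0.37, adjusted p = 0.198, limma). Ptprk differed by 1.03 (SE 0.45) and Ptprg by -0.21 (SE 0.22), both with overlapping groups.

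Downstream of TEK, 15 adaptors and PI3K-AKT genes had a median difference of -0.04, and 2 of them separated the groups as higher and 3 as lower, against 20.9% and 11.6% of all genes. The 2 higher ones, the adaptor gene Dok2 and Tnip2, were at background on all 6 arrays. Akt2, a kinase of the pathway, read 5.43 to 5.91 in tumour LEC and 6.98 to 8.47 in normal LEC, a difference of -2.09 (SE 0.40, adjusted p = 0.113, limma). Grb14, an adaptor that binds active TEK, was at background on the tumour arrays and read 7.70, 4.19 and 5.89 on the normal ones. Its fitted difference was -3.20 (SE 0.86, adjusted p = 0.200), and set against the background limits the tumour level was at least 5.11-fold lower. Rasa1, a RAS GTPase activator, differed by 0.33 (SE 0.18). Both Akt2 and Grb14 were highest on normal replicate 1.

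FOXO1 is held out of the nucleus by AKT when TEK is active and drives Angpt2 when it is not. Foxo1 read 8.87 to 9.33 in tumour LEC and 8.02 to 8.75 in normal LEC, a difference of 0.76 (SE 0.24, adjusted p = 0.239, limma). The 16 FOXO factors and target genes had a median of 0.04, with 9 positive and 7 negative. Bcl6, a transcriptional repressor, differed by -1.48 (SE 0.45) and Cdkn1b, a cell cycle inhibitor, by 0.46 (SE 0.21), both with separate groups.

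Of the 4 integrin chains known to bind angiopoietins or their relatives, Itgb3 read 11.65 to 11.72 in tumour LEC and 9.72 to 10.92 in normal LEC, a difference of 1.28 (SE 0.31, adjusted p = 0.173, limma). Itgb1 differed by 0.57 (SE 0.17) and Itga5 by -0.97 (SE 0.41), with separate groups for both. Among 8 genes that regulate Angptl4 or handle lipoprotein lipase, Hif1a, a subunit of the hypoxia-inducible factor, read 12.39 to 12.92 in tumour LEC and 11.70 to 11.97 in normal LEC, a difference of 0.70 (SE 0.19, adjusted p = 0.200). Ppard, a nuclear receptor, differed by 0.21 (SE 0.13), and Lpl, the lipase that ANGPTL4 inhibits, by -1.57 (SE 1.18) with overlapping groups. The adipocyte list, another source of Angptl4, had 4 of its 5 genes on the array at background on all arrays, Adipoq among them. The remaining gene, Fabp4, a fatty acid binding protein also made by endothelium, read 14.48, 14.43 and 13.91 on the tumour arrays and 12.36, 13.42 and 13.91 on the normal ones, a difference of 1.04 (SE 0.43).

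**Figure D5:**
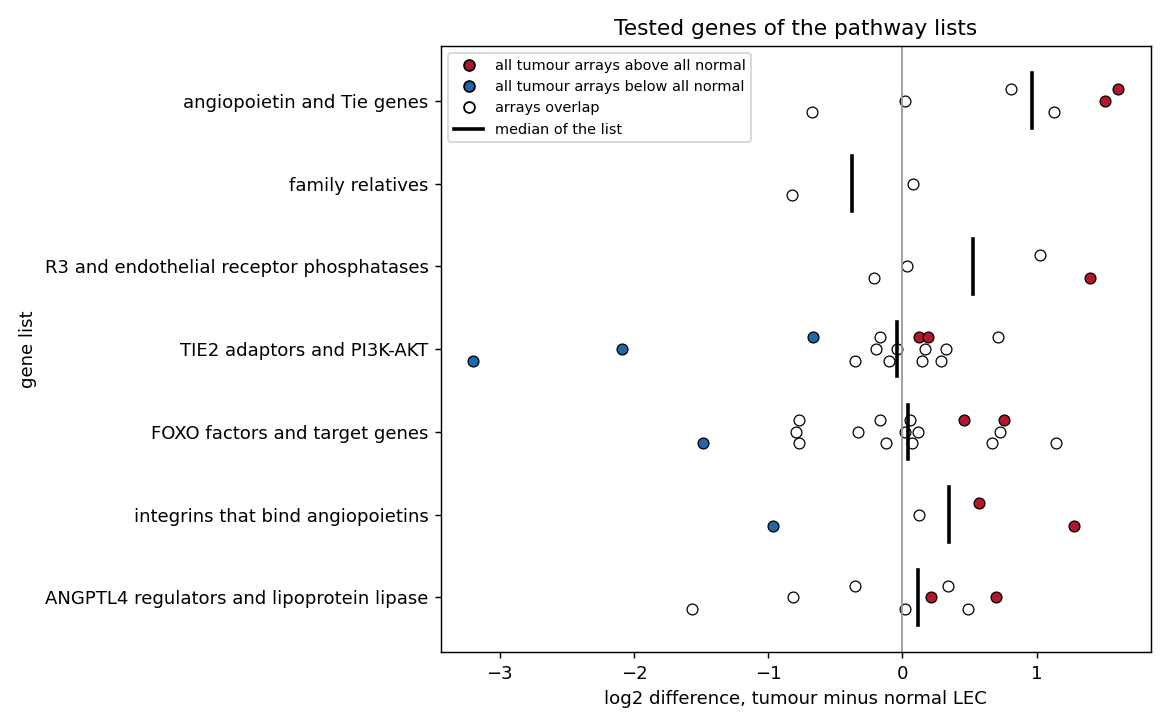
Log2 difference between tumour and normal LEC (x axis) for each tested gene of the lists (rows), filled where all tumour arrays lay above (red) or below (blue) all normal arrays and open where they overlapped, with a bar at each list's median. The median of the angiopoietin and Tie genes is 0.97, and those of the adaptor and FOXO lists are -0.04 and 0.04. The phosphatase, integrin and ANGPTL4 lists have medians of 0.53, 0.35 and 0.12. The family relatives have -0.37 over 2 genes, Angptl1, at background on all arrays, and Angptl7, above it on normal replicate 1 alone. The pan-endothelial list, not shown, has 0.96.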

How the data were processed

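Each deposited value is the log2 expression of 1 of 45101 probe sets on 1 of 6 arrays. The methods listed in the submitters' processing notes are RMA and GCRMA. The sources used here do not say which gave these numbers. Both methods correct background, normalize between arrays and summarise probes, and GCRMA draws dim signals towards a floor.

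Gene names came from GEO's platform annotation, with symbols checked against RefSeq (GRCm38.p6), where 0 changed. Probe sets with several genes (932), none listed (9160) or controls (64) named no gene. Probe sets with a mean above the 40th percentile (2.71) were kept and the brightest probe set of a gene was used. Groups were compared with limma 3.58.1 in R 4.3.3 (lmFit, eBayes), two-sided, with Benjamini-Hochberg adjustment over 12954 genes, a threshold of 0.05, and 1.61 prior beside 4 residual degrees of freedom. Lists are described by counts and medians. The fit was checked on simulated data.

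Named are all members, for each pathway list the 3 genes of smallest p (as no list gene passed the threshold), 12 marker genes, and the 3 most correlated genes of each member. The marker gene not mentioned above is Krt14, of keratinocytes. Of 9 keratinocyte genes on the array 6, Krt14 among them, were at background on all arrays. Other genes, and the CAGGAA and CCGGAA motifs, were chosen after their values were seen. Members and lists were chosen with earlier results of these data known. The alternatives were other filters, quantile normalization, median centring, trend and robust variance, array weights, other probe set rules, the replicate number in the fit and leaving out each array. Centring on the endothelial list and leaving out 2 arrays were added after seeing the data. A planned comparison of protein sequences was not run.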

Additional observations from a re-analysis of the deposited data

How the results depend on the processing

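Angpt2, Ptprb and Angptl4 kept their positive difference in all 15 planned and both added settings, with ranges of 0.59 to 2.28, 0.69 to 2.01 and 0.16 to 2.18. Their adjusted p ran from 0.0974 to 0.431, 0.0999 to 0.579 and 0.112 to 0.925 (limma), and 0 of the 6 genes passed the threshold in any setting. With arrays centred on the pan-endothelial list the intervals of Angpt2 (-0.56 to 1.73) and Ptprb (-0.46 to 1.83) included 0. The Ptprb interval also did so without normal replicate 1 and tumour replicate 3 (-0.31 to 2.66). The Angptl4 interval did so with all arrays (-1.16 to 3.42). Over its 16 settings the adjusted p of Angpt1 was 0.0556 to 0.796, lowest with arrays centred on the pan-endothelial list (-1.60). With single arrays left out the differences ran from 1.27 to 1.74 for Angpt2, 1.36 to 2.01 for Ptprb, 0.57 to 2.18 for Angptl4, 0.42 to 1.07 for Tek, -0.59 to 0.36 for Tie1 and -1.13 to 0.18 for Angpt1. Angptl4 was 1.77 with array weights and 0.16 without probe sets ending in _x_at or _s_at, which left only its probe set at background. The 60th percentile filter left no value for Angpt1. Signs turned for Tie1 with median centring (-0.043) and array weights (-0.44), for Tek (-0.11) and Tie1 (-0.90) with arrays centred on the pan-endothelial list, and for Angpt1 (0.28) without normal replicate 1 and tumour replicate 3, where Tie1 was 0.41. The cause was not tested.

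The count of all genes past the threshold was 28 (6 higher, 22 lower). It was 10 with no filter on dim probe sets, 97 with the 60th percentile filter (18 higher, 79 lower), 385 with array weights (125 higher, 260 lower), 12 without normal replicate 1 and tumour replicate 3, and 4 (without tumour replicate 3) to 81 (without normal replicate 1) with single arrays left out. It was 9 and 11 without tumour replicates 1 and 2 and 6 without normal replicate 3. With arrays centred on the pan-endothelial list it was 1383 (41 higher, 1342 lower) and 10 pathway genes passed, all lower, in a fit that gave every gene the same standard error. With the replicate number as a block the count was 46 (11 higher, 35 lower), Angpt2 stood at adjusted p = 0.111, Ptprb at 0.0999, and none of the 6 genes passed. Deviations of arrays with the same number correlated at 0.19, 0.33 and -0.004 across genes, and those of arrays with different numbers at -0.37 to 0.13. The matched values of replicates 1 and 2 exceeded all unmatched ones, but that of replicate 3 did not. With the block the SE was smaller for each of the 6 genes, for Ptprb 0.21 against 0.39. Pairing of the arrays by number is thus neither shown nor excluded. Dim genes, Angpt1 among them, cannot be compared below the background limit.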

Other observations

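Cited2, a target of FOXO and hypoxia factors, followed Angptl4 in part: it read 10.82, 12.48 and 13.42 on tumour replicates 1, 2 and 3 and 10.94, 10.95 and 11.39 on the normal arrays (difference 1.14, SE 0.66). It was chosen after its values had been seen. Pparg, a nuclear receptor that raises Angptl4, went the other way among the tumour arrays, at 10.45, 9.09 and 7.75. It read 9.49, 10.03 and 10.22 on the normal arrays, with overlapping groups. Pdk4, a FOXO target, read 4.66 on tumour replicate 3 and 8.13 to 9.20 on the other 5 arrays. Gpihbp1, which carries lipoprotein lipase across endothelium, read 8.04, 3.23 and 4.92 on the tumour arrays, the value of tumour replicate 2 being at background. On the normal arrays it read 5.08, 3.85 and 5.80, so the groups overlapped (difference 0.49, SE 1.29).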
